A study of Mus musculus with 12 samples.

Results

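The genes described here are 59 genes of DNA replication and S phase, a list of named genes from the parts of the replication machinery, drawn up with earlier results of these data known. All 59 had a probe set with a single gene symbol on the array, among 19937 genes in all. RNA was measured on 12 Affymetrix arrays from bone marrow progenitors that were sorted from C57BL/6J mice. The KO mice had floxed Lamtor2 alleles (Lamtor2f/f) and the WT mice wild-type ones (Lamtor2 wt/wt). The strain labels write Mx1-Cre wt/wt for both genotypes, while the protocols name Mx-Cre. Whether the WT mice carried the Cre transgene is not settled by these sources. Mice of both genotypes were given pIpC i.p. and cells were taken at day 14, and the age of the mice was not given in the sources used here. pIpC induces interferon, and Mx1-Cre is known to be switched on by interferon in many cell types, while deletion outside the sorted cells was not measured here. Each genotype was represented by 3 mice, and each of 4 groups (LSK WT, LSK KO, GMP WT and GMP KO) by 3 arrays. LSK, sorted as Lin- Sca1+ c-Kit+, is the population with stem cells and early multipotent progenitors. GMP, the progenitors of granulocytes and macrophages, was sorted as Lin- Sca1- with c-Kit, CD34 and FcγR on the surface. Which LSK and GMP arrays shared a mouse was not stated.

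Replication starts at origins that the origin recognition complex marks. Cdc6 and Cdt1 then load the ring of MCM proteins onto DNA in G1, a step called licensing, which geminin holds back later in the cycle. At the onset of S phase the kinase of Cdc7 and Dbf4, together with cyclin E and its kinase, turns the MCM ring into an active helicase by adding Cdc45 and GINS. Primase and polymerase alpha lay down primers, the clamp loader sets the PCNA clamp, polymerases delta and epsilon copy the strands, and Fen1 and Lig1 join the Okazaki fragments. E2F transcription factors switch on many of these genes late in G1. Progenitors of the blood divide often, and stem cells rarely, so such genes are commonly read as a measure of how many cells of a population are cycling.

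Promoters of the members are shown because E2F factors are known to bind short words in such promoters. The 4 words TTTCCCGC, TTTGGCGC, TTTCGCGC and TTTGCCGC were searched on both strands, from 250 bases before to 50 after each start in RefSeq's table for GRCm38.p6. Of 60 promoters of the 49 members found in that table, 19 (31.7%) held at least 1 word, against 744 of all 32851 promoters of the same length (2.26%) and 574 of 19176 promoters of genes on the array (2.99%). The words stood in 4 of 6 promoters of MCM2-7 genes (5 genes found) and 4 of 8 promoters of origin recognition and licensing genes (7 genes). They stood in 4 of 8 promoters of polymerase and primase genes (7 genes) and 0 of 5 promoters of nucleotide synthesis genes. Promoters of the origin firing and helicase activation genes had 0 of 5, and those of single-strand binding and Okazaki fragment joining 1 of 8. A match is a run of letters, and binding was not measured. Of the GINS genes, 1 was found in that table, and its promoter held a word. All 5 members printed here hold a word, while 19 of the 49 members found did so in the searched window. The 250 bases before the start of 5 members from the MCM2-7, licensing, polymerase and GINS groups follow. Each is written 5′ to 3′ on the strand of its gene, with the words or their reverse complements in capitals.
Gins3: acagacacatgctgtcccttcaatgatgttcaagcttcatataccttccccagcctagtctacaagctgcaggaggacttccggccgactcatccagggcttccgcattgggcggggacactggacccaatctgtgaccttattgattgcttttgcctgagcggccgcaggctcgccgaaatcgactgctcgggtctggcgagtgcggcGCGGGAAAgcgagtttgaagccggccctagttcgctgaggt
Mcm6: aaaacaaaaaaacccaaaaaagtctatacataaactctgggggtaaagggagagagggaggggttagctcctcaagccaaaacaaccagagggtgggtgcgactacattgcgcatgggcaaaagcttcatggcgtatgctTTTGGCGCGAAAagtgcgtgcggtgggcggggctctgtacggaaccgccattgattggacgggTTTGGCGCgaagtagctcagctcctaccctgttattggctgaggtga
Orc1: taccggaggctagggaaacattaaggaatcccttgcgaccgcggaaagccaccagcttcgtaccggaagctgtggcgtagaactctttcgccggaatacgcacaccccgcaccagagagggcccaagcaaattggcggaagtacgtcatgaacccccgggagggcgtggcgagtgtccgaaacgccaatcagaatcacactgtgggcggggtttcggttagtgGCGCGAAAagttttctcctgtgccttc
Cdc6: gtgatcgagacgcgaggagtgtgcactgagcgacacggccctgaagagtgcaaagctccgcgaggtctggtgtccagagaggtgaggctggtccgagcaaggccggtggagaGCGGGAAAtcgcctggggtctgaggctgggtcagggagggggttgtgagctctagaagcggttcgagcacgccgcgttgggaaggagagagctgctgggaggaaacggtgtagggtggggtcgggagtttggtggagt
Pola1: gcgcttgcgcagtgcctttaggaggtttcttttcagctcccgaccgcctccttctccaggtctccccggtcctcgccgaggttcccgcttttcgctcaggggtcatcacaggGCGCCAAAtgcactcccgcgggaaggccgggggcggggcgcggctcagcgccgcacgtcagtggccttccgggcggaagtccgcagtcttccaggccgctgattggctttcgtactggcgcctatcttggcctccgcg
The Gins3 stretch lies at chr8:95633309-95633558 on the plus strand, and its word begins 41 bases before the start. The Mcm6 stretch lies at chr1:128359706-128359955 on the minus strand and holds 3 words, the first pair of which overlap, at 110, 106 and 47 bases before the start. The Orc1 stretch (chr4:108579204-108579453, plus strand) has its word 27 bases before the start. The Cdc6 stretch (chr11:98907901-98908150, plus strand) and the Pola1 stretch (chrX:93632156-93632405, minus strand) each have a word 138 bases before the start.

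Values are log2 intensities as the RMA procedure gives them, and a difference of 1 is a 2-fold change. Array medians over the genes lay between 6.30 and 6.44. GMP KO replicate 1 stood apart, with a mean correlation of 0.979 with its own group. GMP KO replicates 2 and 3 had 0.985 and 0.986, and the arrays of the other groups had 0.993 to 0.996. GMP KO was thus the most spread group, while the main fit shared its estimate of spread over the 4 groups. Lamtor2 itself read 10.31 to 10.82 on the 6 WT arrays and 4.95 to 5.77 on the 6 KO arrays, which matches the labels and shows what a deleted gene reads here. No member had a group mean at or below 5.77, since their group means ran from 5.94 to 12.40. Of 10 measured stem cell markers, 9 were higher in WT LSK than in WT GMP, and 12 of 12 granulocyte and macrophage progenitor markers were lower. Ly6a, the gene of Sca1, was not analysed here. Macrophage markers moved with the genotype, with 7 of 12 called higher in KO GMP (median difference 2.12) and 5 of 12 in KO LSK (0.93). Their summed intensity was 838 to 960 in LSK WT, 3668 to 9159 in LSK KO, 1786 to 1917 in GMP WT and 14100 to 17198 in GMP KO. Mertk, Mrc1, Marco and Gpnmb were at the level of deleted Lamtor2 in both WT groups, and none of the 12 markers was in GMP KO. Of 10 mast cell and basophil markers, 3 were called higher in KO GMP and 4 in KO LSK. Granulocyte and macrophage progenitor markers were higher by sign in KO LSK for 12 of 12, with 4 called (median 0.72), and 3 of 12 were called lower in KO GMP. Of the 10 stem cell markers, 2 were called lower in KO LSK, and 2 were called higher and 1 lower in KO GMP. In KO GMP 2 of 8 erythroid markers were called lower, and their summed intensity was 1256 to 1331, against 2008 to 2560 in WT. Over all genes, 10.3% were called higher and 9.32% lower in WT LSK than in WT GMP. The shares were 5.78% higher and 10.3% lower in KO GMP, and 2.49% higher and 1.96% lower in KO LSK. The part of these cell type markers in the results below was not tested.

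In GMP, loss of Lamtor2 went with lower replication transcripts. Of the 59 members, 45 fell (limma, adjusted p below 0.05), 14 did not pass and 0 rose, so that 76.3% of the members fell. Of all genes tested 16.1% were called, 10.3% lower and 5.78% higher. The median difference of the members was -0.53, against 0.01 over all genes. All 3 KO arrays lay below all 3 WT arrays for 49 members, and for 17.6% of all genes. The called falls ran from 0.28 to 1.22 on the log2 scale, and 2 members, Gins3 (2.32-fold) and Fen1 (2.06-fold), fell at least 2-fold. By sign, 58 members were lower and 1, E2f1, was higher. With quantile normalisation repeated, 35 members fell and 3 were higher by sign, and with only the groups compared 33 fell. Relative to the WT GMP mean, the median member read -0.05, 0.08 and -0.03 on the WT arrays and -0.55, -0.53 and -0.41 on the KO arrays. The same KO arrays held the highest macrophage marker sums. Fewer dividing cells among those sorted and less of each RNA per dividing cell cannot be told apart in such bulk samples.

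**Figure D1:**
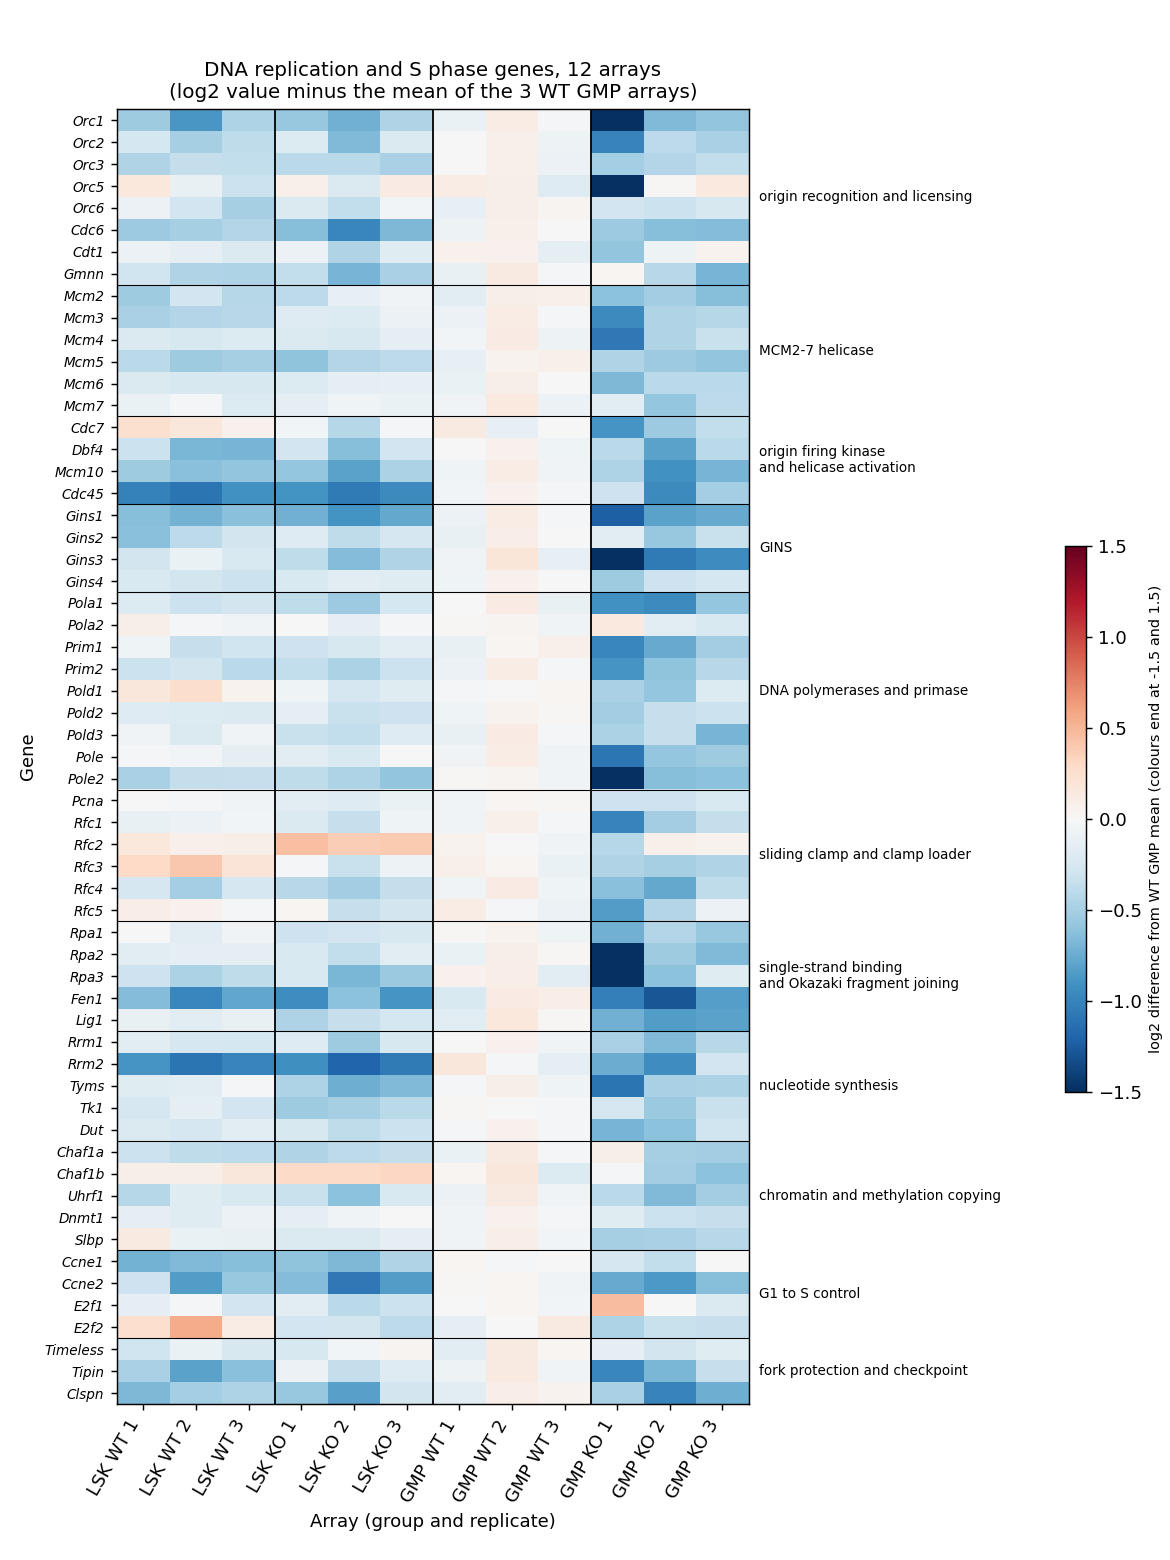
Heat map of the 59 members (rows, by role) on the 12 arrays (columns, by group), with colour for the log2 intensity minus the mean of the 3 WT GMP arrays. The 3 GMP KO columns are lower than the 3 GMP WT columns for 49 members, and the median member of the 6 LSK columns reads -0.22 to -0.39.

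Among the 8 genes of origin recognition and licensing, 4 fell in GMP (median -0.46). Cdc6, which loads the MCM ring, read 8.51, 8.66 and 8.58 on the WT arrays and 8.04, 7.95 and 7.94 on the KO arrays, a fall of 0.61 (SE 0.10, adjusted p = 0.00129). Orc3, a subunit of the origin recognition complex, read 9.76, 9.83 and 9.67 in WT and 9.25, 9.31 and 9.38 in KO, a fall of 0.44 (SE 0.08, adjusted p = 0.00335). Both sets of values were tight and did not overlap. Orc1, the subunit that is made and destroyed with the cycle, read 7.45, 7.66 and 7.53 in WT and 5.93, 6.89 and 6.96 in KO. Its fall of 0.96 (SE 0.22, adjusted p = 0.00865) leaned on GMP KO replicate 1 and was 0.63 without that array. Orc2 fell by 0.63, with an adjusted p of 0.05 without GMP WT replicate 1 and 0.0706 without GMP WT replicate 2. Orc5 (-0.48), Orc6 (-0.28), Cdt1 (-0.21) and Gmnn (-0.36), which encodes geminin, did not pass. Without GMP KO replicate 1, Orc5 was 0.08 higher in KO, and Gmnn passed at -0.56, while Gmnn was -0.19 without GMP KO replicate 3.

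All 6 subunits of the MCM2-7 helicase fell in GMP, by 0.38 to 0.62 (median -0.56). Mcm5 read 9.49, 9.66 and 9.68 in WT and 9.17, 9.07 and 9.03 in KO, a fall of 0.53 (SE 0.10, adjusted p = 0.00227). Mcm2 read 9.84, 10.10 and 10.08 in WT and 9.39, 9.48 and 9.36 in KO, a fall of 0.59 (SE 0.11, adjusted p = 0.00333). Mcm6 read 11.09, 11.27 and 11.20 in WT and 10.51, 10.78 and 10.78 in KO, a fall of 0.49 (SE 0.10, adjusted p = 0.00342). The groups were apart for each of the 6 subunits, and their falls were close to each other in size. Mcm3 fell by 0.61 and Mcm4 by 0.62, which became 0.39 without GMP KO replicate 1. The call of Mcm4 was lost without GMP WT replicate 2 (adjusted p = 0.0662) and with only the groups compared (0.0805). Mcm7, with the smallest fall of the 6 (0.38), lost its call without any 1 of GMP WT replicates 1 to 3 and GMP KO replicates 2 and 3 (adjusted p 0.0511 to 0.158). Mcm7 also lost its call with quantile normalisation repeated, only the groups compared and replicate blocks (adjusted p up to 0.302).

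The 4 genes that turn the loaded ring into a moving helicase fell in GMP as well (median -0.59). Mcm10, which helps to open the origin, read 8.53, 8.71 and 8.54 in WT and 8.13, 7.69 and 7.90 in KO, a fall of 0.69 (SE 0.12, adjusted p = 0.00189). Cdc45, a part of the active helicase, read 9.64, 9.75 and 9.66 in WT and 9.38, 8.73 and 9.17 in KO, a fall of 0.59 (SE 0.14, adjusted p = 0.00976). Cdc7, the kinase that fires origins, read 7.64, 7.39 and 7.51 in WT and 6.64, 6.97 and 7.14 in KO, a fall of 0.60 (SE 0.14, adjusted p = 0.0113). The KO arrays were more spread than the WT arrays for all 3 genes, and none overlapped. The call of Cdc45 was lost with quantile normalisation repeated (adjusted p = 0.0878) and with only the groups compared (0.0599). Dbf4, the partner that activates Cdc7, fell by 0.53. Without GMP WT replicate 1 the adjusted p was 0.0529 for Cdc7, and that of Dbf4 was 0.0615 to 0.0872 without GMP WT replicate 1 or 2 or GMP KO replicate 2. With quantile normalisation repeated, the adjusted p of Dbf4 was 0.118.

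Of the 4 GINS subunits, which join Cdc45 and MCM in the active helicase, 3 fell in GMP (median -0.65). Gins3 had the largest fall of all members: it read 7.82, 8.05 and 7.75 in WT and 6.23, 6.81 and 6.93 in KO, a fall of 1.22 (SE 0.16, adjusted p = 0.000221). Gins1 read 9.17, 9.37 and 9.22 in WT and 8.03, 8.45 and 8.50 in KO, a fall of 0.93 (SE 0.12, adjusted p = 0.000208). Both transcripts lay far below WT in every KO array. Gins4 read 9.80, 9.92 and 9.87 in WT and 9.33, 9.56 and 9.60 in KO, a fall of 0.37 (SE 0.09, adjusted p = 0.0149, and 0.0698 without GMP WT replicate 2). The call of Gins4 was also lost with quantile normalisation repeated and with only the groups compared (adjusted p up to 0.11). Gins2 did not pass at -0.36 (adjusted p = 0.0664), and passed at -0.45 without GMP KO replicate 1. Differences between subunits in the size of their fall were not tested.

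Of the 9 polymerase and primase genes, 8 fell in GMP (median -0.63). Pola1, the catalytic subunit of polymerase alpha, read 9.68, 9.80 and 9.56 in WT and 8.78, 8.73 and 9.10 in KO, a fall of 0.81 (SE 0.12, adjusted p = 0.000468). Prim1, the catalytic subunit of primase, read 9.87, 10.01 and 10.05 in WT and 8.99, 9.22 and 9.45 in KO, a fall of 0.75 (SE 0.12, adjusted p = 0.00102). Both enzymes work in the same complex, together with Prim2, which fell by 0.63. Pole, the catalytic subunit of the leading strand polymerase epsilon, read 8.92, 9.09 and 8.93 in WT and 7.90, 8.40 and 8.45 in KO, a fall of 0.73 (SE 0.13, adjusted p = 0.00235). Its partner Pole2 fell by 0.93. The 3 subunits of polymerase delta, the lagging strand enzyme, fell by 0.43 (Pold1), 0.40 (Pold2) and 0.51 (Pold3). The call of Pold1 was lost without GMP WT replicate 2 or 3 or GMP KO replicate 2 (adjusted p 0.05 to 0.055). Its call was also lost with quantile normalisation repeated and with only the groups compared (adjusted p up to 0.106). That of Pold2 was lost with quantile normalisation repeated (0.0726) and with only the groups compared (0.0537). Pola2, the regulatory subunit of polymerase alpha, did not pass and read 8.54, 8.56 and 8.46 in WT and 8.66, 8.36 and 8.30 in KO, a difference of -0.08 (SE 0.10).

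**Figure D2:**
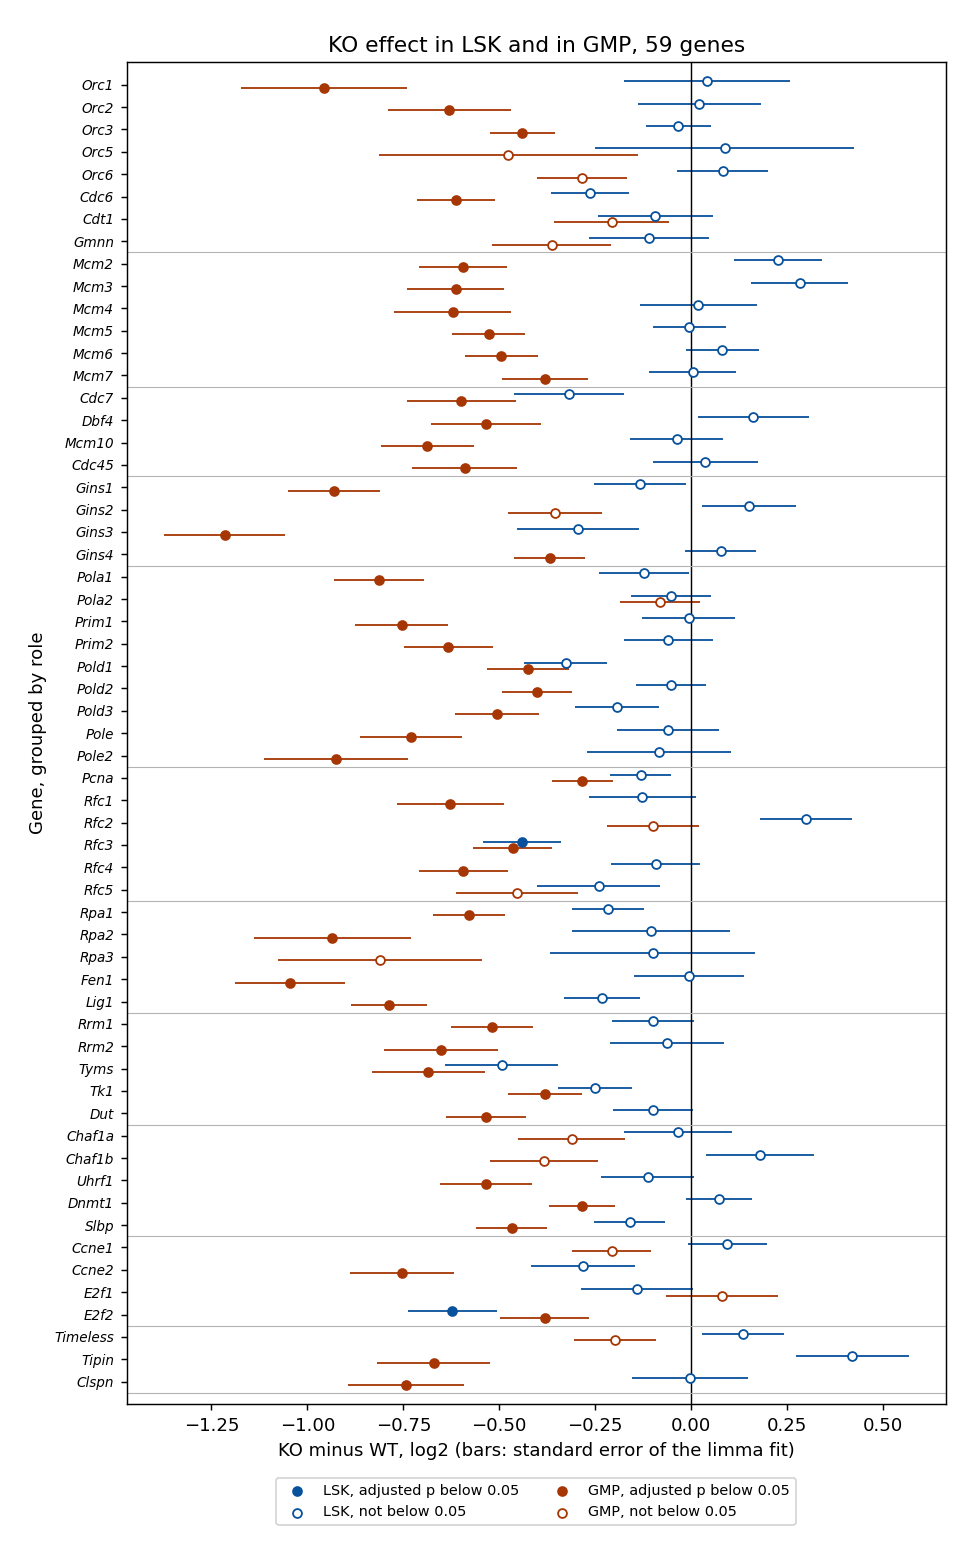
KO minus WT difference (log2, horizontal axis) of each of the 59 members in LSK and in GMP, by role, with the SE of the fit as bars and the calls marked. In GMP the points run from -1.22 to 0.08 and 45 are called, and in LSK they lie around 0 and 2 are called.

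In the clamp and clamp loader group, 4 of 6 genes fell in GMP (median -0.46). Rfc4, a small subunit of the loader, read 9.15, 9.32 and 9.14 in WT and 8.58, 8.43 and 8.82 in KO, a fall of 0.59 (SE 0.12, adjusted p = 0.0036). Rfc3 read 9.25, 9.20 and 9.07 in WT and 8.72, 8.68 and 8.73 in KO, a fall of 0.47 (SE 0.10, adjusted p = 0.00742). Rfc1, the large subunit, read 9.67, 9.80 and 9.71 in WT and 8.73, 9.20 and 9.37 in KO, a fall of 0.63 (SE 0.14, adjusted p = 0.00774). The groups did not overlap for these 3 subunits. Pcna, the clamp, fell by 0.28 in the probe set used and read 0.56 lower in its other probe set (-0.56). Its call was lost without any 1 of the 3 GMP WT arrays or GMP KO replicate 2 (adjusted p 0.0538 to 0.0985), and with only the groups compared (0.124). Rfc2 (-0.10) and Rfc5 (-0.45, adjusted p = 0.0716) did not pass, and Rfc5 passed at -0.64 without GMP KO replicate 3 but was -0.26 without GMP KO replicate 1. Rfc2 turned to 0.07 without GMP KO replicate 1, and Rfc3 lost its call in GMP with quantile normalisation repeated (adjusted p = 0.0574).

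The 5 genes of single-strand binding and Okazaki fragment joining had the lowest median of the 11 role groups in GMP (-0.81), and 4 fell. That median was the value of Rpa3, which did not pass. Relative to the WT GMP mean, the group median read -1.03, -0.62 and -0.67 on GMP KO replicates 1 to 3. On replicate 2 the origin firing (-0.85), GINS (-0.69) and fork protection (-0.69) groups read lower. Differences between role groups were not tested. Lig1, the ligase that seals the fragments, had the smallest p of all members. It read 9.37, 9.70 and 9.56 in WT and 8.83, 8.70 and 8.75 in KO, a fall of 0.79 (SE 0.10, adjusted p = 0.000171). Fen1, the nuclease that trims the fragments, read 8.11, 8.46 and 8.44 in WT and 7.31, 7.05 and 7.51 in KO, a fall of 1.05 (SE 0.14, adjusted p = 0.000332). For both genes every KO array lay well below every WT array. Rpa1, the large subunit of the complex that coats single strands, read 8.95, 8.99 and 8.87 in WT and 8.21, 8.49 and 8.37 in KO, a fall of 0.58 (SE 0.09, adjusted p = 0.00106). Rpa2 fell by 0.93, and by 0.60 without GMP KO replicate 1. Rpa3 read 9.53, 9.56 and 9.29 in WT and 7.82, 8.84 and 9.28 in KO, and its difference of -0.81 (SE 0.27, adjusted p = 0.0552) did not pass, with KO arrays spread from near the WT level to far below it. Without GMP KO replicate 3 it passed at -1.13, and without GMP KO replicate 1 it was -0.40 (adjusted p = 0.109). The call of Rpa2 was lost with only the groups compared (adjusted p = 0.0538).

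All 5 genes of nucleotide synthesis fell in GMP (median -0.53). Dut, which clears dUTP, read 9.41, 9.50 and 9.41 in WT and 8.75, 8.83 and 9.14 in KO, a fall of 0.53 (SE 0.10, adjusted p = 0.00371). Rrm1, the large subunit of ribonucleotide reductase, read 10.91, 10.98 and 10.86 in WT and 10.43, 10.26 and 10.50 in KO, a fall of 0.52 (SE 0.11, adjusted p = 0.00493). Tyms, which makes thymidylate, read 10.21, 10.32 and 10.17 in WT and 9.14, 9.75 and 9.76 in KO, a fall of 0.68 (SE 0.15, adjusted p = 0.00633). No KO array reached the lowest WT array for any of the 3 genes. Rrm2, the small subunit of the reductase, fell by 0.65, a call that was lost with only the groups compared (adjusted p = 0.0519). Tk1, which salvages thymidine, fell by 0.38 (-0.33 in its other probe set), with adjusted p of 0.0562 and 0.0554 without GMP WT replicate 1 or 2. The call of Tk1 was also lost with quantile normalisation repeated, probe sets averaged and only the groups compared (adjusted p up to 0.182).

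Among the genes that copy chromatin and DNA methylation, 3 of 5 fell in GMP (median -0.38). Slbp, which binds histone mRNA, read 9.54, 9.70 and 9.56 in WT and 9.10, 9.12 and 9.18 in KO, a fall of 0.47 (SE 0.09, adjusted p = 0.00406). A second probe set of Slbp gave -0.72. Uhrf1, which recruits the maintenance methyltransferase, read 10.53, 10.75 and 10.56 in WT and 10.20, 9.95 and 10.09 in KO, a fall of 0.53 (SE 0.12, adjusted p = 0.00849, and 0.0501 without GMP WT replicate 2). The call of Uhrf1 was also lost with quantile normalisation repeated (adjusted p = 0.0883). Dnmt1, the maintenance methyltransferase, read 10.43, 10.54 and 10.47 in WT and 10.30, 10.16 and 10.13 in KO, a fall of 0.28 (SE 0.09, adjusted p = 0.0399). Its groups were apart, but the call was lost without any 1 of the GMP WT arrays or GMP KO replicates 2 and 3 (adjusted p 0.0747 to 0.149). The call of Dnmt1 was also lost with quantile normalisation repeated, only the groups compared and replicate blocks (adjusted p up to 0.499). Chaf1a (-0.31) and Chaf1b (-0.38), subunits of the histone chaperone that follows the fork, did not pass. In both, GMP KO replicate 1 lay with the WT arrays, and without it they passed at -0.51 and -0.57.

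Of the 4 regulators of the G1 to S step, 2 fell in GMP (median -0.29), and of the 3 genes of fork protection and checkpoint, 2 fell (median -0.67). Ccne2, a cyclin E, read 8.57, 8.58 and 8.50 in WT and 7.79, 7.69 and 7.92 in KO, a fall of 0.75 (SE 0.14, adjusted p = 0.00227). The other cyclin E, Ccne1, did not pass (-0.21). E2f2, an activator of S phase genes, read 6.18, 6.33 and 6.45 in WT and 5.85, 5.99 and 5.98 in KO, a fall of 0.38 (SE 0.12, adjusted p = 0.0408). Its KO values were close to the level of a deleted gene. That call was lost without GMP WT replicate 2 or 3 or any 1 of the GMP KO arrays (adjusted p 0.051 to 0.145). The call of E2f2 in GMP was also lost with array weights and with only the groups compared. E2f1, the related activator, read 7.83, 7.85 and 7.78 in WT and 8.28, 7.81 and 7.60 in KO, with a difference of 0.08 that was -0.11 without GMP KO replicate 1. At the fork, Clspn, an adaptor of the replication checkpoint, read 8.31, 8.56 and 8.52 in WT and 7.97, 7.46 and 7.73 in KO, a fall of 0.74 (SE 0.15, adjusted p = 0.00466). Tipin, which stabilises the stalled fork, read 10.71, 10.92 and 10.74 in WT and 9.82, 10.11 and 10.44 in KO, a fall of 0.67 (SE 0.15, adjusted p = 0.0069). Timeless, the partner that Tipin binds, did not pass (-0.20).

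**Figure D3:**
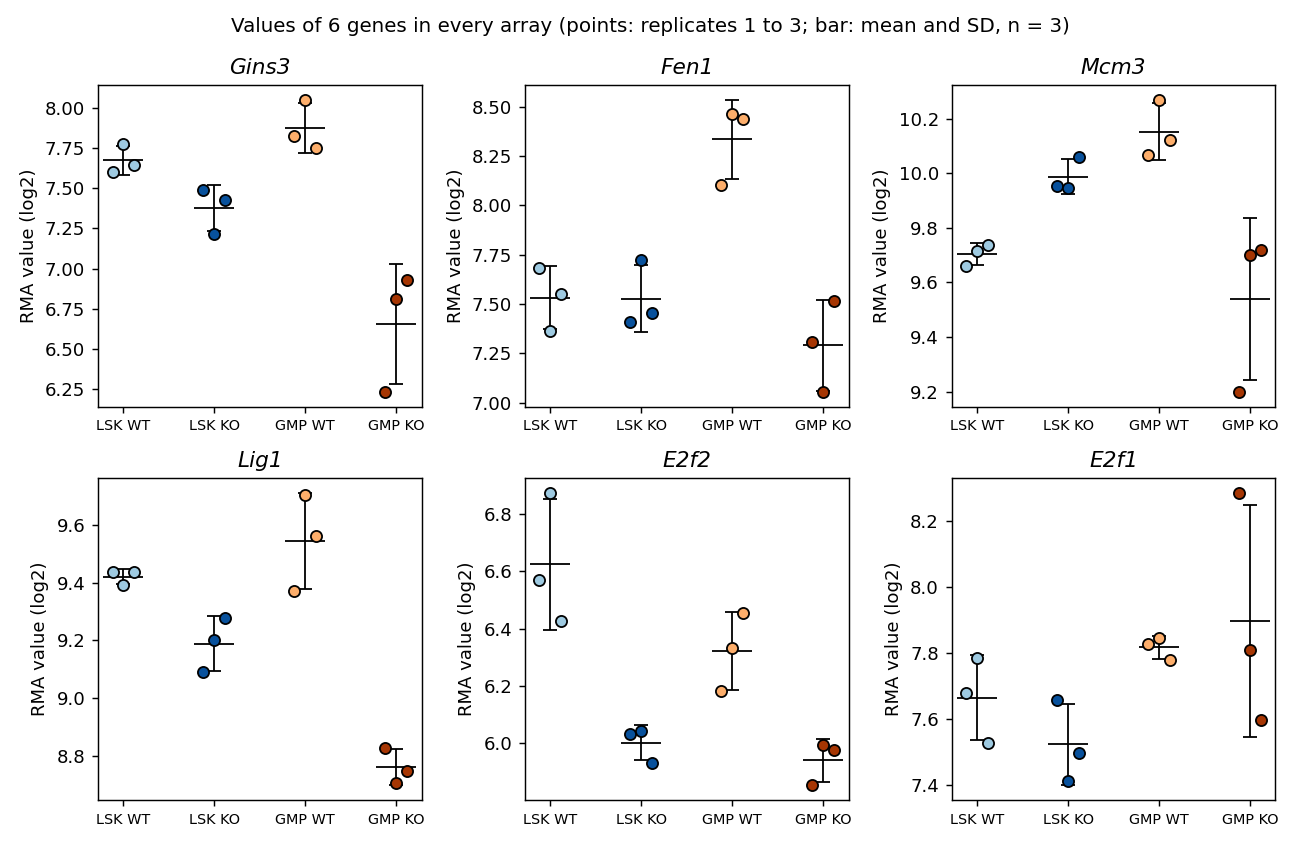
Log2 intensity (vertical axis) of 6 members on each of the 12 arrays, in the groups LSK WT, LSK KO, GMP WT and GMP KO, with points for arrays and bars for the mean and SD (n = 3). Gins3 reads 7.75 to 8.05 in GMP WT and 6.23 to 6.93 in GMP KO, and E2f2 reads 6.43 to 6.87 in LSK WT and 5.93 to 6.04 in LSK KO.

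In LSK cells few of the same genes were called, and the median difference between genotypes was small. Of the 59 members, 2 fell and 0 rose (limma), against 4.44% of all genes called, 1.96% lower and 2.49% higher. The median member difference was -0.06, against -0.01 over all genes, with SEs of 0.08 to 0.34. By sign, 40 members were lower and 19 higher in KO, where 10668 of all 19937 genes were lower and 9269 higher. All KO arrays lay below all WT arrays for 14 members and above them for 5, against 13.2% and 12.4% of all genes. E2f2, the E2F activator described above, read 6.57, 6.87 and 6.43 in WT and 6.03, 6.04 and 5.93 in KO, a fall of 0.62 (SE 0.12, adjusted p = 0.00777). Rfc3 read 9.48, 9.58 and 9.37 in WT and 9.16, 8.84 and 9.10 in KO, a fall of 0.44 (SE 0.10, adjusted p = 0.0266). The call of Rfc3 was lost without LSK WT replicate 1 or 2 or LSK KO replicate 2 or 3 (adjusted p 0.0603 to 0.124), while E2f2 kept its call under every alternative (highest adjusted p 0.0441). E2f2 and Rfc3 were called lower in both cell types, and the KO values of E2f2 were close to the level of deleted Lamtor2 (up to 5.77). Tyms read 10.05, 10.08 and 10.20 in WT and 9.77, 9.51 and 9.57 in KO, a difference of -0.49 that did not pass (adjusted p = 0.0811). In the MCM2-7 group the median difference was 0.05, and Mcm3 (0.28) and Mcm6 (0.08) lay higher in every KO array without passing. LSK KO replicate 2, which had the highest macrophage marker sum of the LSK arrays, also had the lowest member median of them, -0.39 relative to WT GMP, against -0.24 and -0.25 on the other LSK KO arrays and -0.22 to -0.27 in LSK WT. Among the GMP KO arrays the order was the other way. There replicate 3 had the highest marker sum (17198) and the highest member median (-0.41). Replicate 1, the array that stood apart, had the lowest sum (14100) and the lowest median (-0.55). Whether the marker sum and the member median are related was not tested.

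The test of the difference between the KO effects (LSK minus GMP) called 14 members, all with a lower value of the KO effect in GMP, and 0 the other way. Of all genes 7.98% were called, 5.34% in the direction of the members and 2.64% in the other. The median of this difference was 0.47, and 57 of 59 members had a positive sign. With quantile normalisation repeated, the median was 0.28, 50 members had a positive sign and 5 were called. The called members came from the helicase (Mcm2 0.82, Mcm3 0.90, Mcm5 0.52, Mcm6 0.58), its activation (Mcm10 0.65, Gins1 0.80, Gins3 0.92), the polymerases and primase (Pola1 0.69, Prim1 0.75, Prim2 0.57, Pole 0.67), fragment joining (Fen1 1.04, Lig1 0.55) and the fork (Tipin 1.09). Tipin had the largest difference: it read 10.31, 9.99 and 10.17 in LSK WT and 10.71, 10.43 and 10.60 in LSK KO, so that it lay 0.42 higher there (SE 0.15, adjusted p = 0.143) while it fell by 0.67 in GMP. Fen1 read 7.68, 7.36 and 7.55 in LSK WT and 7.41, 7.72 and 7.45 in LSK KO, groups that overlap, against the fall of 1.05 in GMP. Mcm3 read 9.66, 9.72 and 9.74 in LSK WT and 9.95, 9.94 and 10.06 in LSK KO, higher in every KO array but not called. Fen1, Gins1, Mcm2, Mcm3 and Tipin passed with each array left out in turn. The other 9 lost their call without 3 to 11 of the arrays taken singly (adjusted p 0.0503 to 0.132). Leaving out replicate 2 or 3 of LSK WT gave counts of 6 and 7, replicate 1 or 3 of LSK KO gave 9 and 5, and replicate 2 or 3 of GMP WT gave 5 and 8. It was 25 without GMP KO replicate 1 and 23 without GMP KO replicate 3. No difference between the KO effects was called for the other members. Some of these were near 0 or negative, such as Rfc3 (0.02) and E2f2 (-0.24). Others were as large as called ones, such as Orc1 (1.00, adjusted p = 0.0644), Pole2 (0.84, 0.0721) and Clspn (0.74, 0.0511).

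In WT mice, replication transcripts were lower in LSK than in GMP cells. Of the 59 members, 16 were called lower in LSK and 0 higher (limma), where 19.6% of all genes were called, 9.32% lower and 10.3% higher. The median difference was -0.23 (LSK minus GMP), against -0.03 over all genes, and 52 members had a negative sign. LSK WT arrays lay wholly below GMP WT arrays for 35 members, and for 21.5% of all genes. Cdc45 differed most, with 8.67, 8.59 and 8.77 in LSK and 9.64, 9.75 and 9.66 in GMP, a difference of -1.01 (SE 0.14, adjusted p = 0.000126). Rrm2 read 9.34, 9.13 and 9.24 in LSK and 10.40, 10.21 and 10.08 in GMP (-0.99, SE 0.15, adjusted p = 0.000293). In each of these genes the populations lay far apart compared with the spread within them. Ccne1 differed by -0.67 and Ccne2 by -0.57, so both cyclin E genes were lower in LSK. The others called lower were Fen1 (-0.80), Gins1 (-0.66), Tipin (-0.63), Mcm10 (-0.58), Dbf4 (-0.57), Clspn (-0.55), Cdc6 (-0.50), Mcm5 (-0.48), Mcm3 (-0.45), Gins2 (-0.43), Mcm2 (-0.42) and Orc3 (-0.40). Clspn, Gins2, Mcm2, Mcm3 and Dbf4 lost the call when 1 of 3 to 5 of the WT arrays was left out (adjusted p 0.05 to 0.118), and the count then ran from 11 to 16. Pcna differed by -0.02 in the probe set used and in its other one, and Slbp by -0.03 in the probe set used and -0.23 in its other one. Rfc3, higher in LSK by 0.30, did not pass (adjusted p = 0.0579), but it was called higher with quantile normalisation repeated (0.40), without the dimmest genes, with array weights and with only the groups compared.

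In KO mice many members read higher in LSK than in GMP. Of the 59, 14 were called higher in LSK than in GMP and 1 lower (limma), where 15.8% of all genes were called, 10.1% higher and 5.79% lower. The median difference was 0.22 (all genes -0.05). All 3 LSK KO arrays lay above all 3 GMP KO arrays for 21 members, and for 16.3% of all genes. These arrays are also those of the KO against WT comparisons above, and the macrophage marker sum was lower in LSK KO than in GMP KO, with no overlap. The largest difference was that of Gins3, which read 7.49, 7.22 and 7.43 in LSK KO against 6.23, 6.81 and 6.93 in GMP KO (0.72, SE 0.16, adjusted p = 0.00791). Chaf1b read 8.67, 8.67 and 8.69 in LSK KO and 8.37, 7.86 and 7.77 in GMP KO (0.68, SE 0.14, adjusted p = 0.00593). Both sets of arrays were apart, with LSK KO the tighter of them. The other members called higher in LSK were Rpa2 (0.68), Pole (0.60), Prim1 (0.52), Rfc2 (0.51), Tipin (0.46), Mcm3 (0.45), Lig1 (0.43), Pola1 (0.42), Mcm2 (0.40), Mcm6 (0.34), Rfc3 (0.32) and Rpa1 (0.30). Ccne1 was the member called lower (-0.37), as it was in WT. By sign, 42 members were lower in LSK than in GMP in WT and higher in KO, and Mcm2, Mcm3 and Tipin were called in both. Of the 15 calls, 11 were lost without at least 1 array (adjusted p 0.0534 to 0.166), Ccne1, Mcm2, Mcm3 and Tipin among them, and Gins3, Chaf1b, Pole and Rfc2 were not. With only the groups compared, Chaf1b alone of the 15 passed, and Gins3, Pole and Rfc2 had adjusted p of 0.0575, 0.0666 and 0.0887. Without GMP KO replicate 1 the difference of Rpa2 was 0.35 and that of Mcm3 0.28. The count was 7, 9 and 5 without LSK KO replicates 1, 2 and 3 and 9 without GMP KO replicate 1. With quantile normalisation repeated, 7 members were higher and 3 lower, so that 70.0% of the calls were higher in place of 93.3%.

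**Figure D4:**
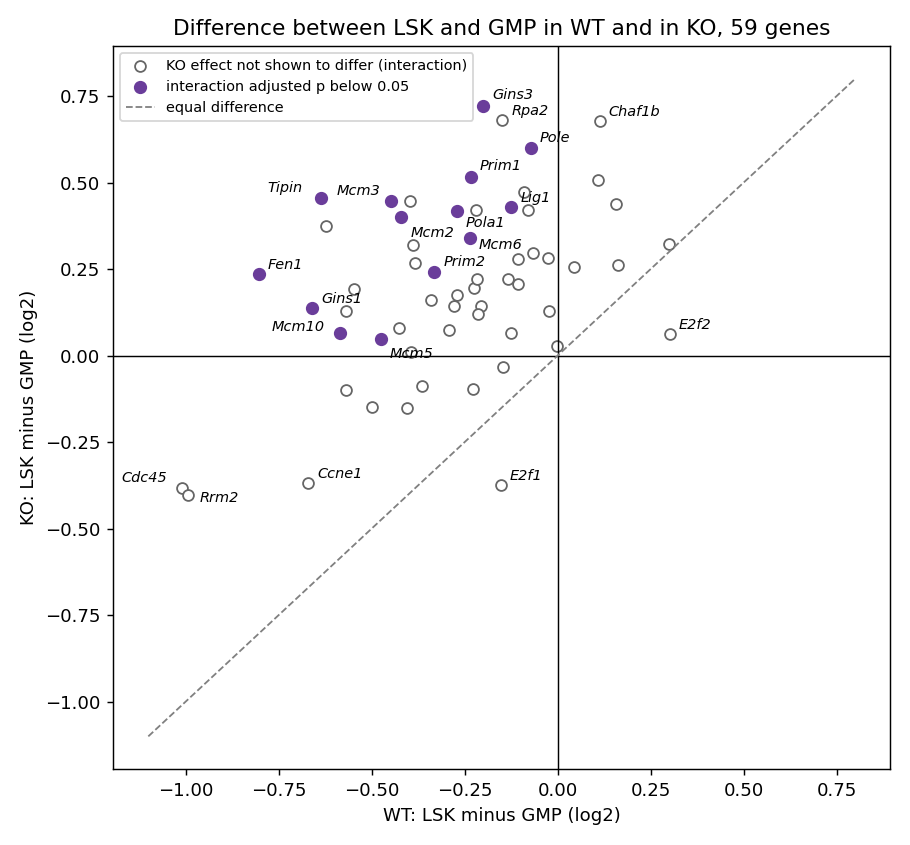
Difference between LSK and GMP (log2, LSK minus GMP) of each of the 59 members in WT (horizontal axis) and in KO (vertical axis), filled for the 14 members whose KO effect differed between the cell types, with a dashed line of equal difference. Most points lie below 0 in WT, where 52 members are lower in LSK, and above 0 in KO, where 49 are higher. The axes share no array, but filled members were picked by a test of the vertical minus the horizontal value. Their distance from the dashed line is therefore no separate result.

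Genes outside the 59 that act in the same processes fell in GMP as well. Of 39 measured factors listed as other replication factors, 22 fell in KO GMP and 1 rose, with a median of -0.40. The shares over all genes there were 10.3% lower and 5.78% higher. Top2a, the topoisomerase that untangles replicated DNA, fell by 1.16 (SE 0.12, adjusted p = 2.94e-05), Mcm8, a paralogue of the MCM proteins, by 0.88 and Hells, a chromatin remodeller, by 0.79. Ticrr, which helps to load Cdc45, fell by 0.74. Tk2, the thymidine kinase of mitochondria, rose by 0.66 (SE 0.14, adjusted p = 0.00569), in contrast to the fall of the S phase enzyme Tk1. Of 22 other regulators of the G1 to S step, 10 fell and 0 rose in GMP (median -0.31). Ccna2, the cyclin of S phase and G2, fell by 1.00, the repressor E2f6 by 0.75, the pocket protein Rbl1 by 0.72 and the phosphatase Cdc25a by 0.51. In LSK, 0 of the 39 replication factors and 1 of the 22 regulators fell (Ccnd3 -0.50, adjusted p = 0.0379), and 0 rose in either list. The shares over all genes in LSK were 1.96% lower and 2.49% higher.

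Neighbouring parts of the cycle moved the same way in GMP. All 24 measured genes of G2 and mitosis fell in KO GMP, with a median of -1.07, against -0.53 for the replication genes. Of 20 genes of homologous recombination and Fanconi repair, 15 fell and 0 rose (median -0.54). Over all genes 10.3% were called lower and 5.78% higher in KO GMP. Examples are Tpx2, a spindle factor (-1.19), Bub1b of the spindle checkpoint (-1.06), Brca1 (-0.92) and Brip1, its helicase partner (-0.99). In LSK, 1 mitotic gene fell (Prc1 -0.77) and 1 repair gene (Fanca -0.53), where 1.96% of all genes were called lower. Differences between the lists were not tested, and E2F factors are known to act on genes of all of these lists.

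**Figure D5:**
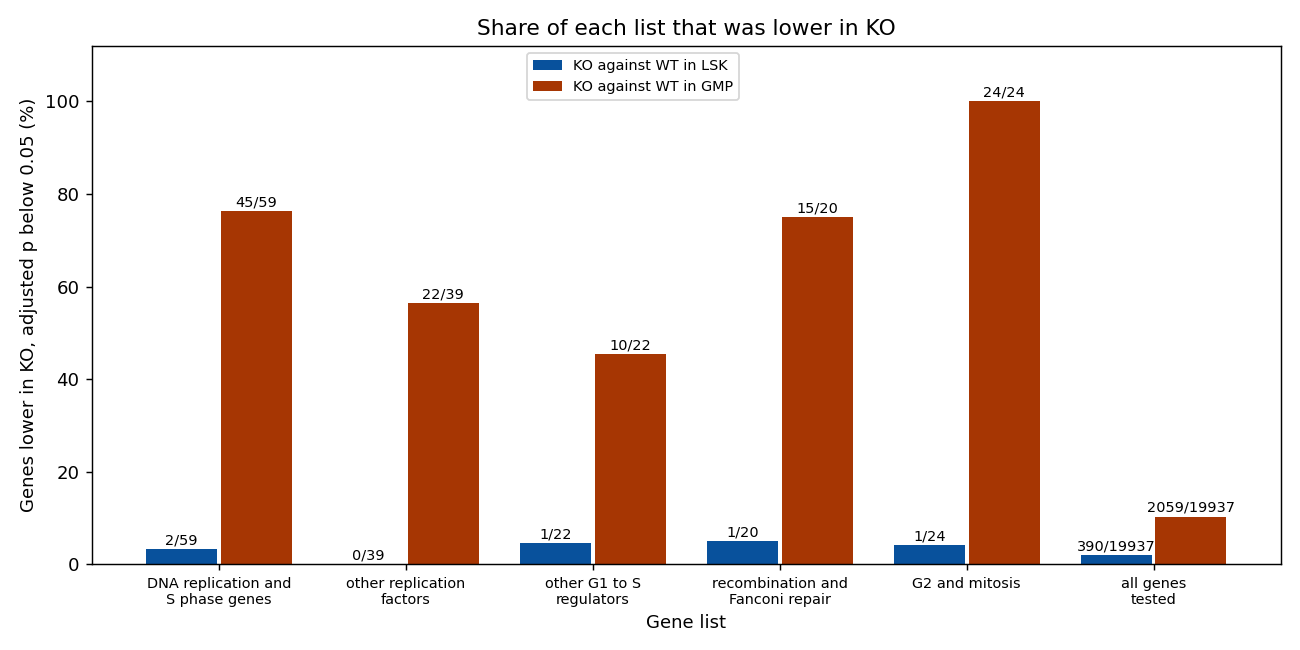
Percentage of measured genes of each list called lower in KO against WT (vertical axis, bars from 0) in LSK and in GMP, for the members and the other lists, beside all genes tested. In GMP the share is 76.3% for the members against 10.3% of all genes, and in LSK 2 of 59 members against 1.96% of all genes.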

How the data were processed

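Per the labels, RNA from the Qiagen RNeasy Micro Kit was amplified with the WT-Ovation Pico system (NuGEN) and labelled with biotin (Ambion WT Expression Kit). The authors deposited log2 intensities processed with RMA, per the submitters' processing notes, and neither its version nor a genome build was given in these sources. No normalisation was added. Of 34760 probe sets, 21640 had 1 gene symbol, 1321 several and 11799 no entry in the annotation used, and the brightest probe set stood for each of 19937 genes. All genes were fitted with limma 3.58.1 in R 4.3.3 (lmFit, eBayes, two-sided, 4 groups, 12 arrays, degrees of freedom 8 residual and 5.16 prior, Benjamini-Hochberg over all genes, threshold 0.05). The number of arrays limits the precision. The labels give 3 mice per genotype but do not tie arrays to mice, so p-values measure the spread between these arrays.

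The members and the gene lists were chosen with earlier results of these data known. The text names, for each contrast, up to 30 called members by smallest p, per-array values of up to 3 called members of each role group, and the remaining members after their values were seen, to account for all 59. Those 3 per role group were also picked by smallest p, so groups lying apart in them are no separate evidence. Promoters come from RefSeq. Alternatives tried were repeated quantile normalisation, centring of arrays, leaving out the dimmest 30% of genes, averaging probe sets, the trend and robust options of eBayes, array weights, only the groups compared, replicate blocks and leaving out each array.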

Additional observations from a re-analysis of the deposited data

Results flagged for a closer look

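For 14 members the KO effect differed between LSK and GMP by the test of that difference itself (limma interaction term, adjusted p below 0.05 over all genes). The difference, LSK minus GMP on the log2 scale, was 0.82 for Mcm2, 0.90 for Mcm3, 0.52 for Mcm5, 0.58 for Mcm6, 0.65 for Mcm10, 0.80 for Gins1, 0.92 for Gins3, 0.69 for Pola1, 0.75 for Prim1, 0.57 for Prim2, 0.67 for Pole, 1.04 for Fen1, 0.55 for Lig1 and 1.09 for Tipin. All 14 fell in GMP, and none was called in LSK, where Tipin, Mcm3 and Mcm2 read 0.42, 0.28 and 0.23 higher in KO. Fen1, Gins1, Mcm3 and Tipin kept the call under all 19 alternatives, and Prim2 under 4 of them.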

How the results depend on the processing

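No median and no called member turned its direction under an alternative, but uncalled members did: 4 in GMP (E2f1, Orc5, Pola2 and Rfc2), 18 in LSK, 7 in the interaction, 9 in WT LSK against WT GMP and 16 in KO LSK against KO GMP. In GMP the count of 45 fallen members ran from 33 (only the groups compared) to 49 (arrays centred on the gene median), and from 34 to 48 with an array left out. Of the 45, 28 held under every alternative. The median in GMP was -0.42 with quantile normalisation repeated and -0.60 with centring. In LSK the count of 2 became 1 with centring, 5 with array weights (3 lower, 2 higher) and 1 to 2 with an array left out. The interaction called 5 members with quantile normalisation (median 0.28), 25 with centring (median 0.57), 22 with array weights, and 5 to 25 with an array left out. For WT LSK against WT GMP, 28 were called with centring (median -0.33), 29 with array weights and 27 with only the groups compared, and the median was -0.15 with quantile normalisation. Centring moved the median of all genes to -0.12 there, from -0.03. For KO LSK against KO GMP, 9 were called with array weights (median 0.13), 1 with only the groups compared and 5 to 17 with an array left out. The median was 0.13 with quantile normalisation and 0.15 to 0.26 with an array left out, the lowest without GMP KO replicate 1. The causes were not tested. Over all pairs of groups, same-numbered arrays had correlations of their deviations from -0.23 to 0.29, 4 of 18 over 0.1. Only LSK and GMP arrays of the same genotype could share a mouse. Same-numbered arrays of that kind had 0.177, -0.027 and 0.08 in WT and 0.001, -0.179 and 0.146 in KO. Sharing of mice was not stated, and the numbers were not taken to pair samples. With the replicate number as a block, 43 members fell in GMP, 2 in LSK, 12 passed the interaction, 16 were lower in WT LSK and 13 passed in KO LSK against KO GMP. Members near the level of deleted Lamtor2, such as E2f2, have little room to fall.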
